A study of Mus musculus with 6 samples.

Results

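Expression of 10 genes that mark endothelium, the cells lining blood vessels and liver sinusoids, was measured in mouse fetal liver at E14.5 with and without tropomodulin 3 (Tmod3), which blocks growth and loss of actin subunits at filament pointed ends. The 10 genes were chosen by name, 6 as general endothelial genes (Pecam1, Cdh5, Tek, Tie1, Egfl7 and Ramp2) and 4 as genes of the sinusoidal lining (Lyve1, Stab1, Stab2 and Oit3), out of 19938 named genes on the array. All 10 had exactly 1 probe set carrying that gene symbol alone, and each gene is represented by it. The livers came from 3 Tmod3-/- embryos (KO), labelled as having a small liver and anemia, and 3 Tmod3+/+ embryos (WT), labelled normal, all of strain C57BL/6J. Each embryo gave 1 Affymetrix MoGene 1.0 ST array hybridised with RNA of the whole liver, and the series text calls the embryos independent. How the Tmod3 allele was disrupted, and whether in all cells, is not stated in the labels.

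Endothelial cells adhere to each other through proteins such as PECAM1 and VE-cadherin and depend on receptor tyrosine kinases, among them the TIE receptors, to form and keep vessels. In the liver they form sinusoids, wide and permeable capillaries whose lining takes up waste molecules from the blood through scavenger receptors. In the fetal liver this lining borders the developing blood cells. In RNA of a whole liver, fewer cells of a type and less RNA per cell cannot be told apart.

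The 6 arrays had medians of 1.36 to 1.43 over all 28853 probe sets, on a scale read as log2. Precision is limited by their number. Tmod3 itself read 1.32, 2.36 and 1.30 in KO livers and 4.49, 4.78 and 4.90 in WT livers, so each array matched its genotype label. KO replicate 2 stood apart from the other 5 arrays in the sex-linked genes. It read 4.21 for Eif2s3y, a gene of the Y chromosome, where the other arrays read 0.90 to 1.30, and 1.03 for Xist, the RNA of the inactive X chromosome, where the others read 5.79 to 7.67. By these genes KO replicate 2 was a male embryo and the other 5 were female, so sex was not balanced between the genotypes. Some values change by over 1.5 times without KO replicate 2. For the 10 genes and for genes named from 8 further lists, such values are given with and without KO replicate 2. Over all genes the difference between genotypes depended on the level of the gene. The median log2 fold change, KO minus WT, was +0.03 for the 14695 genes with a mean level from 1 to 2, -0.13 for the 2111 genes from 2 to 3 and -0.24 for the 2545 genes at 3 or more.

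None of the 10 endothelial genes differed between KO and WT livers at an adjusted p under 0.05 (limma, adjusted over all 19938 genes). Over all genes 3 passed, or 0.015%. Ramp2 and Oit3 had the largest differences, both higher in KO livers, at +0.44 and +0.41 on the log2 scale. The other 8 genes lay between -0.11 and +0.13. Over the 10 genes the median log2 fold change was +0.10, with 7 genes above 0 and 3 below, and over all genes it was +0.01. At an unadjusted p under 0.05, 2 of the 10 genes were higher in KO livers and 0 were lower, while over all genes 2.59% were higher and 6.44% lower. For 3 of the 10 genes, Ramp2, Oit3 and Pecam1, all KO arrays read above all WT arrays, and for 0 of them below. Over all genes such a separation was found for 6.14% with KO higher and 7.1% with KO lower. With each array centred on its median, the Pecam1 groups overlapped, while those of Ramp2 and Oit3 stayed separate. Because the 10 genes were chosen with earlier results of these data known, these counts are descriptions.

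**Figure D1:**
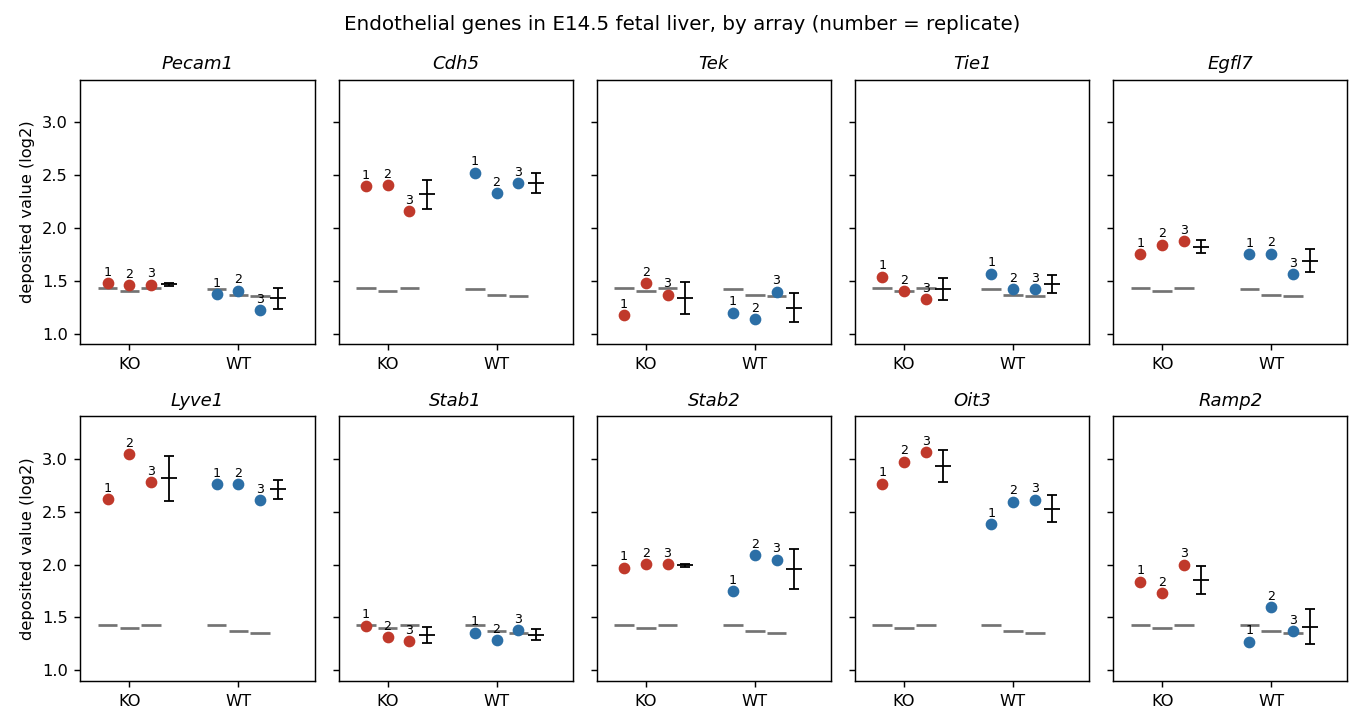
Deposited log2 value of each of the 10 endothelial genes on each array, KO left and WT right, with replicate numbers beside the points. Black bars give the mean and SD of 3 arrays and grey dashes the median of all probe sets on the same array. Cdh5, Lyve1, Stab2, Oit3 and Egfl7 lie above the grey dashes on all 6 arrays, and the KO and WT points are separate for Pecam1, Oit3 and Ramp2.

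The level of each gene was set against the median of all probe sets on its own array. Cdh5, Lyve1, Stab2, Oit3 and Egfl7 lay above that median on all 6 arrays, as did 35.1% of all genes. Ramp2 and Tie1 lay above it on 5 arrays each, Pecam1 on 4, Tek on 2 and Stab1 on 1. In all, 47 of the 60 values were above the median. The values of Pecam1, Tek, Tie1 and Stab1 stayed within 0.26 of the median on every array, where most genes of the array lie, so a difference in their transcripts may not be measurable here. Lyve1 and Oit3 stood furthest above their array medians, by 1.18 to 1.65 and by 0.95 to 1.63. Of the 10 endothelial markers, 5 were therefore measured above the array median throughout.

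The 2 adhesion genes gave no difference past the threshold. Pecam1 encodes an adhesion molecule at contacts between endothelial cells and on platelets and some leukocytes. It read 1.48, 1.45 and 1.46 in KO livers and 1.37, 1.40 and 1.22 in WT livers. The KO arrays were close to each other and just above the highest WT array. Relative to the array medians the groups overlapped, with KO replicate 3 at +0.030 and WT replicate 2 at +0.035. The log2 fold change was +0.13, with a 95% interval of -0.10 to +0.36 (limma adjusted p = 0.768), and the value was +0.08 without WT replicate 3. Cdh5 encodes VE-cadherin, the cadherin of endothelial junctions. It read 2.39, 2.40 and 2.16 in KO livers and 2.52, 2.33 and 2.42 in WT livers. The groups overlapped, with KO replicate 3 lowest and WT replicate 1 highest. Its log2 fold change of -0.11 (interval -0.37 to +0.15, limma adjusted p = 0.845) depended on single arrays. It was -0.03 without KO replicate 3, -0.06 without WT replicate 1 and -0.001 after renewed quantile normalization.

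Tek and Tie1 encode the 2 TIE receptor tyrosine kinases. TEK, also called TIE2, binds the angiopoietins and TIE1 modulates its signal. Tek read 1.18, 1.47 and 1.37 in KO livers and 1.20, 1.14 and 1.40 in WT livers. Tie1 read 1.54, 1.40 and 1.33 in KO livers and 1.57, 1.42 and 1.42 in WT livers. For both genes the spread within each genotype was larger than the difference between genotypes. The log2 fold changes were +0.10 for Tek (interval -0.19 to +0.38) and -0.05 for Tie1 (interval -0.29 to +0.20), with limma adjusted p of 0.880 and 0.938. The value of Tek was +0.03 without KO replicate 2.

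Ramp2 had the largest difference of the 10 genes. It encodes a receptor activity-modifying protein, which joins the receptor CALCRL to form a receptor for adrenomedullin, a peptide known for its role in vessel growth and integrity. Ramp2 read 1.84, 1.73 and 2.0 in KO livers and 1.27, 1.60 and 1.37 in WT livers. Every KO array was above every WT array, and the gap between the lowest KO and the highest WT value, 1.73 against 1.60, was smaller than the range within either group. The mean was 1.85 ± 0.14 in KO livers and 1.41 ± 0.17 in WT livers (SD, n = 3 each), and WT livers were on average only 0.03 above their array medians. Its log2 fold change was +0.44 ± 0.13 (standard error, interval +0.15 to +0.73, limma adjusted p = 0.358), or 1.36-fold as measured. Leaving out any 1 array gave +0.37 to +0.53. Among genes with a mean from 1 to 2, as Ramp2 and Pecam1 have, 59.8% had a log2 fold change above 0. All KO arrays lay above all WT arrays for 7.21% of them. A further probe set named for both Malat1 and Ramp2 was not used, since its signal cannot be assigned to 1 gene.

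The other genes of the adrenomedullin system gave smaller differences. Of 7 measured genes 0 passed in either direction, and their median log2 fold change was -0.02. The ligand gene Adm had -0.06, its relative Adm2 +0.17 and the calcitonin receptor gene Calcr +0.06 (limma adjusted p of 0.919, 0.735 and 0.926). Adm and Calcr were below the array median on all 6 arrays. The receptor gene Calcrl, named after its value had been seen, was above the median on all arrays and read 3.63, 3.86 and 3.50 in KO livers and 3.07, 3.67 and 4.13 in WT livers. Its KO arrays lay within the range of the WT arrays, with a log2 fold change of +0.04 (limma adjusted p = 0.979). Without KO replicate 2 Calcrl had -0.06 and Adm2 +0.09.

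Egfl7 encodes a secreted protein that endothelial cells make and lay down in the vessel wall, and an intron of the gene carries the endothelial microRNA miR-126. The 250 bases before the first annotated start of Egfl7 and the mature miR-126a-3p are shown because gene and microRNA share this locus. Egfl7 and Mir126a, the gene of this microRNA, each have a probe set on the array. The promoter lies at chr2:26580833-26581082 on the plus strand (GRCm38.p6, sequences from RefSeq), and miR-126a-3p at chr2:26591402-26591423 on the plus strand, inside Egfl7 (chr2:26581083-26592682). Capitals in the promoter mark GGAAG on either strand, which contains the core letters of sites for ETS factors, regulators of many endothelial genes. Capitals in the microRNA mark its seed, bases 2 to 8.
Egfl7 promoter: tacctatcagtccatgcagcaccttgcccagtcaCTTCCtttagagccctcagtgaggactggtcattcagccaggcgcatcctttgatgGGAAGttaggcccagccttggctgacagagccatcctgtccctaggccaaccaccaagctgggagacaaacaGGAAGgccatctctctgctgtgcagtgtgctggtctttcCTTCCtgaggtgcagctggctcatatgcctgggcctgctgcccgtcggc
miR-126a-3p: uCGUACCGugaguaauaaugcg
This promoter holds 4 matches to GGAAG on the 2 strands, and 64.1% of 32851 RefSeq promoter windows of the same length hold at least 1 and 10.7% at least 3. The 2 other RefSeq promoter entries of Egfl7 hold 2 and 0 matches, and those of Tie1, Stab1, Stab2 and Tek hold 6, 3, 1 and 0. A match is a description of the letters and not of binding.

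Egfl7 read 1.75, 1.84 and 1.87 in KO livers and 1.75, 1.76 and 1.56 in WT livers. The lowest KO array lay just below 2 of the WT arrays, and WT replicate 3 was lowest of all 6. The log2 fold change was +0.13 (interval -0.11 to +0.37, limma adjusted p = 0.783), and +0.07 without WT replicate 3. The probe set of Mir126a was below the array median on all 6 arrays, at 1.06, 1.23 and 0.99 in KO livers and 1.19, 0.95 and 0.98 in WT livers. A value this low may be background of the array, which was not measured. Whether this probe set reads the mature microRNA or a longer transcript of the locus is not known here. The log2 fold change of Mir126a was +0.05 (interval -0.22 to +0.32, limma adjusted p = 0.936), and KO replicate 2 was the highest array.

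**Figure D2:**
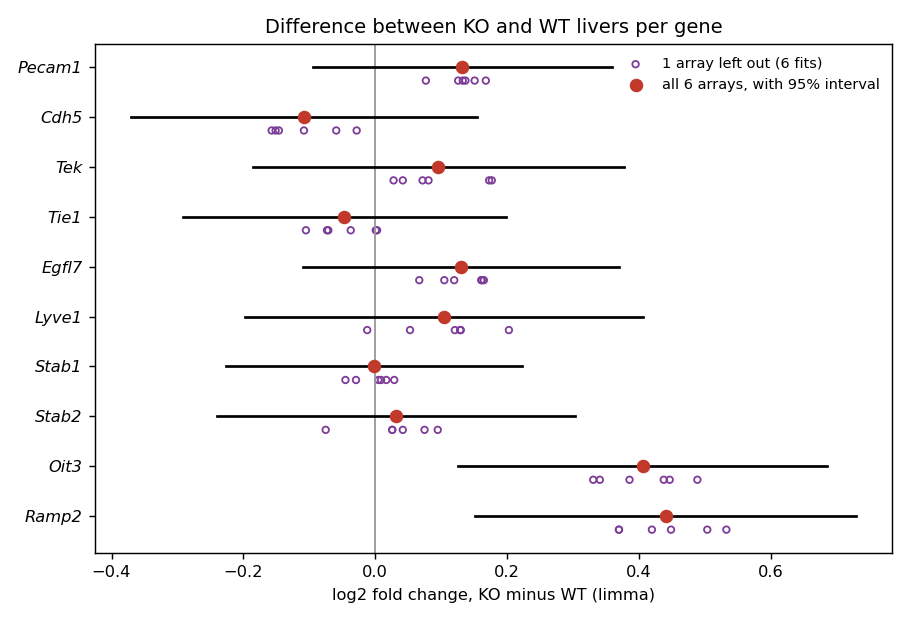
Log2 fold change, KO minus WT, of the 10 endothelial genes (red points) with 95% intervals from limma (black lines), and the values after leaving out each array in turn (open circles). The intervals of Oit3 and Ramp2 lie above 0 before adjustment over all genes, and those of the other 8 genes cross 0.

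Among the sinusoidal genes, Oit3 read higher in KO livers and the 3 receptor genes did not separate. Oit3 encodes a secreted protein with a zona pellucida domain, found mainly in liver. It read 2.77, 2.97 and 3.06 in KO livers and 2.38, 2.59 and 2.61 in WT livers. The lowest KO array, KO replicate 1, lay above the highest WT array. The mean was 2.93 ± 0.15 in KO livers and 2.53 ± 0.13 in WT livers (SD, n = 3 each), which gave a log2 fold change of +0.41 ± 0.12 (standard error, interval +0.13 to +0.68, limma adjusted p = 0.379), or 1.32-fold as measured. Leaving out any 1 array gave +0.33 to +0.49. Among genes with a mean from 2 to 3, as Oit3 has, 28.3% had a log2 fold change above 0 and 2.75% had all KO arrays above all WT arrays. After the arrays were quantile normalized again, the value was +0.58 (limma adjusted p = 0.208).

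Lyve1 encodes a receptor for hyaluronan of lymphatic and sinusoidal endothelium, also made by some macrophages. It read 2.62, 3.05 and 2.78 in KO livers and 2.76, 2.76 and 2.61 in WT livers. The groups overlapped and only KO replicate 2 stood above the rest. The log2 fold change was +0.10 (interval -0.20 to +0.41, limma adjusted p = 0.878), and -0.01 without KO replicate 2. After renewed quantile normalization it was +0.28 (limma adjusted p = 0.741).

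Stab1 and Stab2 encode the stabilins, large scavenger receptors that clear ligands from the blood. Hyaluronan is a ligand of stabilin 2, and Stab1 is also made by macrophages. Stab1 read 1.42, 1.31 and 1.27 in KO livers and 1.35, 1.28 and 1.38 in WT livers. Stab2 read 1.97, 2.0 and 2.0 in KO livers and 1.75, 2.09 and 2.05 in WT livers. For Stab2 the KO arrays were close together and lay between WT replicate 1 and the other two WT arrays. The log2 fold changes were 0.00 for Stab1 (interval -0.23 to +0.22) and +0.03 for Stab2 (interval -0.24 to +0.30), with limma adjusted p of 0.997 and 0.964. Without WT replicate 1 the value of Stab2 was -0.07, and without KO replicate 2 that of Stab1 was +0.01.

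**Figure D3:**
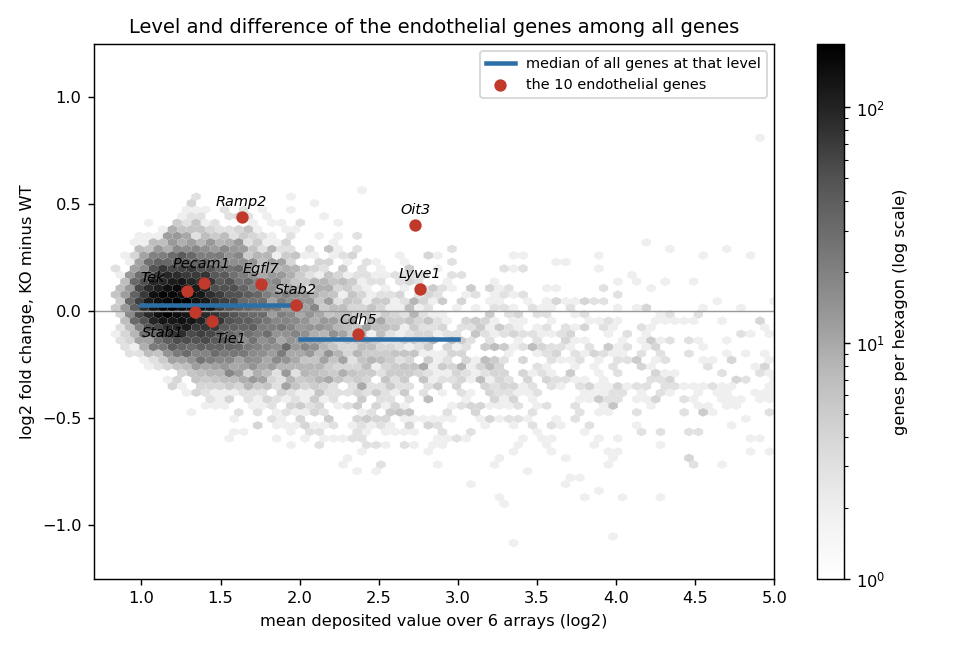
Mean level over 6 arrays against the log2 fold change, KO minus WT, for the 10 endothelial genes (red points) among all genes with a level under 5 (grey hexagons, shaded by the number of genes on a log scale; differences beyond the vertical axis are not drawn). Blue lines give the median of all genes at levels from 1 to 2 and from 2 to 3, +0.03 and -0.13. Oit3 and Ramp2 lie furthest above these lines, followed by Lyve1, and most of the other genes lie near them.

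The 10 genes did not order the arrays in one way. The arrays of highest value were KO replicate 3 for 3 genes, KO replicates 1 and 2 and WT replicate 1 for 2 genes each and WT replicate 2 for 1 gene. KO replicate 3 was also the lowest array for 3 genes, Cdh5, Tie1 and Stab1. The mean over the 10 genes was 1.89, 1.96 and 1.93 in KO livers and 1.79, 1.84 and 1.80 in WT livers. With each array centred on its median, chosen after seeing the data, the means overlapped, at 0.46, 0.56 and 0.50 in KO livers and 0.37, 0.47 and 0.45 in WT livers. The 8 genes other than Ramp2 and Oit3 averaged 1.79, 1.87 and 1.78 in KO livers and 1.78, 1.77 and 1.76 in WT livers, where KO replicate 3 lay just below WT replicate 1. The median log2 fold change over the genes was +0.03 without KO replicate 2.

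Other endothelial genes and genes of related pathways, not all particular to endothelium, were read from 8 lists. Of the 102 genes 99 were measured, and 38 lay above the array median on all 6 arrays. None passed in either direction (limma). At an unadjusted p under 0.05, 4 of the 99 were higher and 4 lower, while over all genes 2.59% were higher and 6.44% lower. All KO arrays read above all WT arrays for 5 of the 99 and below for 5, while over all genes this held for 6.14% and 7.1%. Over the 99 genes the median log2 fold change was +0.03. The 18 other general endothelial genes had a median of +0.06, 0 of them with separate groups. Those with the smallest p were Clec14a, a C-type lectin of endothelium, at -0.37, Ecscr, a regulator of endothelial migration, at +0.42, and the VEGF receptor gene Flt1 at +0.21. The groups overlapped for all 3, and for Ecscr only KO replicate 2, at 2.44, stood far from the other arrays. Without that array Ecscr had +0.14.

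The 14 other sinusoidal genes had a median of +0.04 and went both ways. Rspo3, which encodes an R-spondin that strengthens WNT signals, read 3.07, 2.94 and 3.43 in KO livers and 2.62, 2.55 and 2.76 in WT livers. Every KO array was above every WT array, with a log2 fold change of +0.51 (limma adjusted p = 0.356). Ehd3, which encodes a protein of endocytic membranes, had -0.27 with all KO arrays below all WT arrays, and the growth factor gene Bmp2 had +0.40 with overlap (limma adjusted p of 0.501 and 0.570).

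In the angiopoietin and TIE pathway the 12 genes had a median of -0.05. Angpt1, the activating ligand of TEK, read 1.42, 1.55 and 1.38 in KO livers and 1.64, 1.71 and 1.82 in WT livers. Its groups did not overlap, and the log2 fold change was -0.28 (limma adjusted p = 0.491). Pik3r1, a regulatory subunit of phosphoinositide 3-kinase that acts downstream of many receptors, read 3.62, 3.33 and 3.35 in KO livers and 4.15, 4.49 and 4.22 in WT livers. It had the largest difference of the 8 lists, -0.85, with no overlap (limma adjusted p = 0.144). Among genes with a mean of 3 or more, as Pik3r1 has, 21.3% had all KO arrays below all WT arrays. Foxo1, a transcription factor restrained by this pathway, had -0.27 with overlap and -0.02 without WT replicate 3.

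The 12 other genes of cell junctions had a median of +0.06, which was +0.14 after renewed quantile normalization. Jam3, a junctional adhesion molecule, had +0.28 with separate groups, the actin linker gene Vcl -0.18 and Cd99l2 +0.14, which was +0.07 without KO replicate 2. The 12 Notch pathway genes, set beside Egfl7 because the EGFL7 protein can act on Notch, had a median of +0.01. Dll1 had -0.14, Hes1 +0.10 and Jag2 -0.09, and no gene of this list had separate groups.

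Of the 8 measured genes of hyaluronan metabolism and stabilin ligands, the median was +0.06. Has2, a hyaluronan synthase and so a source of the ligand of Lyve1 and Stab2, read 1.32, 1.58 and 1.74 in KO livers and 1.20, 0.96 and 1.01 in WT livers. The groups did not overlap, with a log2 fold change of +0.49 (limma adjusted p = 0.347), and it lay above the array median on 2 arrays only, both KO. Sparc, a matrix protein bound by stabilin 1, had +0.38 and Has3 +0.21, both with overlap, and Sparc had +0.24 without KO replicate 2. The 16 endothelial transcription factors had a median of +0.01. Klf2, which responds to blood flow in endothelium, had +0.35 with all KO arrays higher, the ETS factor gene Elk3 -0.34 with all KO arrays lower, and Lmo2, shared with blood cells, -0.50 with overlap.

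**Figure D4:**
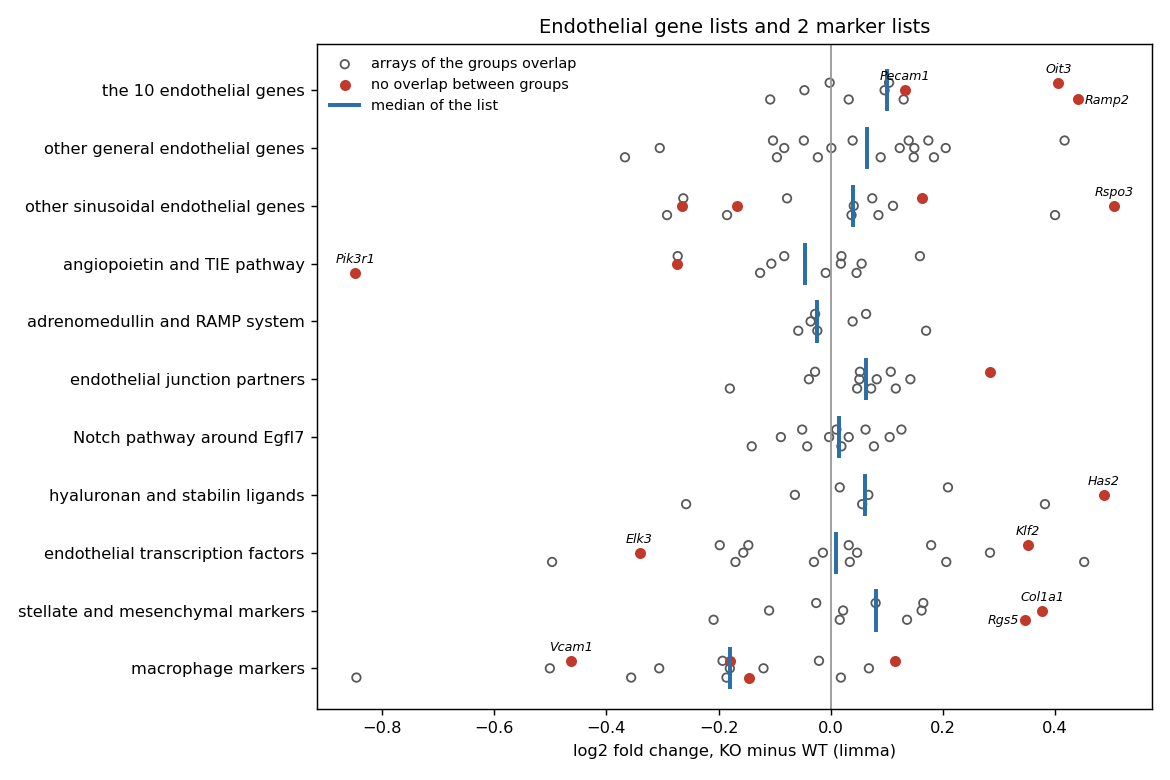
Log2 fold change, KO minus WT, of every measured gene in the 10-gene set, in 8 lists of other endothelial and related pathway genes and in 2 lists of markers of neighbouring cells. Filled points are genes whose KO and WT arrays do not overlap, open points overlap, and blue bars give the median of each list, from +0.10 for the 10 genes to -0.18 for macrophage markers.

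Markers of the cells around the endothelium were read beside these values. The 11 markers of stellate and mesenchymal cells had a median log2 fold change of +0.08, with 8 above 0 and 3 below. Only Col1a1, a collagen chain gene, and Rgs5, a pericyte gene, had all KO arrays above all WT arrays, at +0.38 and +0.35 (limma adjusted p of 0.299 and 0.368). Dcn, Cspg4 and Ngfr had -0.21, -0.11 and -0.03, and Pdgfrb and Col3a1 had +0.02 each. The summed level of that list, as a mean per gene, was 1.83 to 1.87 on KO arrays and 1.69 to 1.85 on WT arrays. The 15 macrophage markers, which bear on Lyve1 and Stab1, had a median of -0.18, and their mean level was 1.48 to 1.81 on KO arrays and 1.80 to 2.0 on WT arrays, with 4 of the 15 below the array median throughout. The 9 measured hepatoblast markers had a median of -0.64, and the 9 erythroid markers -0.38. The hepatoblast markers differed in size. Apoh, Ahsg, Apoa1, Vtn, Ttr and Alb had -1.24, -1.15, -0.89, -0.88, -0.64 and -0.60. Hnf4a, Dlk1 and Afp had -0.11, -0.01 and +0.045, and -0.28, -0.125 and -0.02 without KO replicate 2. KO replicate 3 stood apart in the hepatoblast list, with a mean level per gene of 5.05, where the other KO arrays had 5.80 and 6.02 and the WT arrays 6.00 to 6.43. Without it the hepatoblast median was -0.36 and the macrophage median -0.18. Leaving out any 1 array gave hepatoblast medians from -0.83 to -0.36. The erythroid median ran from -0.64 without WT replicate 1 to -0.335 without WT replicate 2, and was -0.63 without KO replicate 2. The 6 measured megakaryocyte markers, which bear on Pecam1, had -0.05, which was -0.26 without KO replicate 2, and the 9 stem and progenitor cell markers had -0.05, with -0.17 to +0.12 when any 1 array was left out. The part of these cells in the endothelial values was not tested.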

How the data were processed

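RNA of 6 fetal livers was extracted with Trizol, and 6 ug per liver went into biotin labelling, per the labels' protocols. The authors deposited 1 value for each probe set on each array. RMA, which corrects background, normalizes between arrays and summarises probe sets, is the tool named by the submitters' processing notes, without a version. No source used here states the log base. From their range the deposited values were taken to be log2 (array maxima of 11.8 to 12.7), so the size of each fold change rests on that reading. Probe sets were named through the platform annotation: of 28853, 21789 had 1 gene symbol, 1621 several and 5443 none there, and only those with 1 symbol were used. Where a gene had several probe sets, the brightest on average was used. The Entrez identifiers of all 10 members matched the same symbol in the RefSeq gene table of GRCm38.p6.

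The genotypes were compared by limma 3.58.1 (R 4.3.3, moderated linear model, two-sided, no covariates) over all 19938 genes, with Benjamini-Hochberg adjustment and a threshold of 0.05. The fit was tested on simulated data with added changes larger than any difference among the members, so that test does not bear on differences of their size. The smallest exact permutation p for 3 against 3 arrays is 0.1, so none was used. The members and lists were chosen with earlier results of these data known. All members are named, from each of the 8 lists the 3 genes with the smallest p, and Tmod3. Further genes (Calcrl, Mir126a, the sex-linked and the marker genes) were named after their values were seen. Correlations between arrays over all probe sets were 0.974 to 0.990, and no 2 arrays held the same values. Alternatives were a replicate block, leaving out arrays, other normalizations, probe set means, a filter on dim genes, a variance trend, array weights, another threshold and all probe sets. Promoter and microRNA sequences were read from RefSeq tables (GRCm38.p6). Of the members, Egfl7, Tek, Tie1, Stab1 and Stab2 had a promoter entry.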

Additional observations from a re-analysis of the deposited data

How the results depend on the processing

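Under 13 alternatives (12 for Tek and Stab1, which a filter on dim genes removed) 0 of the 10 endothelial genes passed the limma threshold. Ramp2 kept its sign, at +0.37 to +0.53, and Oit3 at +0.33 to +0.58, as did Pecam1, Cdh5, Tek and Egfl7, with Cdh5 between -0.16 and -0.001, the last after renewed quantile normalization. The sign turned in 5 alternatives for Stab1, 3 for Stab2, 2 for Tie1 and 1 for Lyve1, with turned values from -0.07 to +0.03. The median over the 10 genes stayed above 0, from +0.03 without KO replicate 2 to +0.14 without KO replicate 1. The mean over the 10 genes, KO minus WT, was +0.118, and in alternatives chosen after seeing the data +0.081 with each array centred on its median and +0.042 without Ramp2 and Oit3. The medians of the 8 lists of other endothelial and related pathway genes stayed between -0.07 and +0.13 without any 1 array. The count of genes called over all genes was 3, and it was 7 after renewed quantile normalization, 11 with array weights and 0 with the replicate block (1787 at an unadjusted p under 0.05). Without 1 array it ran from 0 without WT replicate 2 (1085 at an unadjusted p under 0.05) to 95 without WT replicate 1. The cause was not tested. Deviations of same-numbered KO and WT arrays correlated at 0.11, 0.06 and -0.10, so the numbers were not taken to pair the samples, and the block changed no call among the 10 genes. The number of members above the array median on all arrays was 5 with either median and with probe set means. Pecam1, Tek, Tie1, Stab1 and the WT values of Ramp2 lie near the array median, where background, which was not measured, may limit what can be read.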
